A study of Mus musculus with 4 samples.

Results

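The arachidonate lipoxygenase genes of mouse skin were followed through RNA sequencing of dorsal lesions. The members were chosen by name, as the 7 lipoxygenase genes *Alox5*, *Alox8*, *Alox12*, *Alox12b*, *Alox12e*, *Alox15* and *Aloxe3* and the lipoxygenase-activating gene *Alox5ap*. All were found among the 24346 gene symbols of each file. The family was picked because the difference of *Alox8* between the groups was already known, so the differences of all 8 genes between the groups are given as a description, with no test. There were 4 libraries, all from dorsal skin of C57BL/6 males that were young adults when the diet began. In the Cont-IMQ group (2 libraries), the mice received the NASH diet (high in fat, cholesterol, sucrose and bile salt) for 3 weeks and then imiquimod (IMQ) cream for 1 day. In the 7KC-IMQ group (2 libraries), the diet also contained the oxysterol 7-ketocholesterol (7KC), and the IMQ treatment was the same. IMQ activates Toll-like receptors and induces psoriasis-like dermatitis. Both groups carried the NASH diet and the IMQ treatment, so neither normal chow nor untreated skin is part of the comparison. The labels give n = 2 per group without saying whether a library came from a single mouse, and the spread between libraries may therefore be partly technical.

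Lipoxygenases insert oxygen into polyunsaturated fatty acids such as arachidonate and linoleate, and the enzymes are named after the carbon they attack. In skin, *Alox12b* and *Aloxe3* encode consecutive enzymes that oxidize the linoleate of acylceramides, a step needed to build the water barrier, and loss of either gene causes ichthyosis. Leukocytes use the product of *Alox5*, helped by the membrane protein encoded by *Alox5ap*, to make leukotrienes. The enzymes encoded by *Alox8*, *Alox12*, *Alox12e* and *Alox15* make other hydroperoxides of arachidonate, and *Alox8* is known as a gene that phorbol ester induces in mouse epidermis.

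Levels are FPKM, fragments scaled by exon length and by the mapped fragments of the library, and can be compared between genes because they are per length. Pairs of values are given with replicate 1 before replicate 2. The libraries were estimated to hold between 14980000 and 16180000 mapped reads. At that depth, 73.1% to 76.0% of the low genes used came within 0.1 of whole reads. By chance, 20% would do so at a fixed depth. The depth was chosen to make this share largest, so the share is not a separate check of it. Epidermal markers were high in every library, as *Krt10* had between 4597 and 8444 FPKM and *Krt14* between 4132 and 5700 FPKM. *Flg* and *Ly6g* were not analysed here. In the 13 genes of the growing hair follicle, the Cont-IMQ libraries lay far apart, on either side of the 7KC-IMQ libraries. The summed level was 130 FPKM in Cont-IMQ replicate 1, 1630 FPKM in Cont-IMQ replicate 2, and 486 and 428 FPKM in 7KC-IMQ skin. None of the 8 members was listed at 0 in any library, and all 8 passed the filter on low values.

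*Alox8* encodes the 8S-lipoxygenase, the mouse counterpart of human ALOX15B. It had 10.5 and 7.04 FPKM in Cont-IMQ skin, and 28.8 and 72.1 FPKM in 7KC-IMQ skin. The groups did not overlap, and the lower 7KC-IMQ library stood at 2.74 times the higher Cont-IMQ library. The mean was 8.78 ± 2.46 FPKM (SD, n = 2) for Cont-IMQ skin against 50.5 ± 30.6 FPKM (SD, n = 2) for 7KC-IMQ skin, a ratio of 5.75. The 7KC-IMQ libraries differed from each other by a factor of 2.50, more than the Cont-IMQ libraries did (1.49). The values rest on an estimated 485, 322, 1411 and 3270 reads, in the same order of libraries. Exact Poisson 95% intervals of those reads, which cover counting error only, were 27.3 to 30.4 FPKM and 69.7 to 74.7 FPKM in 7KC-IMQ skin, so the gap between these libraries was larger than counting error. On the log2(FPKM + 1) scale, which understates the change of low genes, the difference was 2.28 (7KC-IMQ minus Cont-IMQ, standard error 0.46), and it was 1.63 without 7KC-IMQ replicate 2 and 2.93 without 7KC-IMQ replicate 1.

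The sequence upstream of *Alox8* is shown because it is the member whose groups lay farthest apart. The 250 bases before its start site are from RefSeq (GRCm38.p6) and are written 5′ to 3′ on the strand of the gene, with the match to the GC box (GGGCGG on either strand) in capitals.
*Alox8*, chr11:69197844-69198093, minus strand: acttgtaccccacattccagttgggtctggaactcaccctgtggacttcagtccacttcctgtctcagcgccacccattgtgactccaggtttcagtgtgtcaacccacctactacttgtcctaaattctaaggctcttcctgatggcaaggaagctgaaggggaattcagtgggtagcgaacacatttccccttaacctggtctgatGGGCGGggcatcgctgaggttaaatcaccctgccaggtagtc
The *Alox8* window holds 1 GC box, which begins at -42 from the start site, and the window of *Alox12b*, its neighbor on the chromosome, holds 3, which begin at -228, -139 and -19. The RefSeq start sites of *Alox12b* and *Alox12e* lie inside the genes as annotated by GENCODE, so 83 and 98 bases of their windows, with the *Alox12b* box at -19 and the *Alox12e* box at -42, are within the gene. An entry was found for 5 of the 8 members (*Alox5*, *Alox8*, *Alox12*, *Alox12b* and *Alox12e*), and all 5 windows hold a GC box, as do 32.7% of all 32851 promoter windows of the same length. The other motifs searched on both strands were the TATA box (TATAAA, in 12.4% of all windows), the CCAAT box (CCAAT, 33.8%), the AP-1 site (TGANTCA, 6.75%), the STAT site (TTCNNNGAA, 7.02%), the Grainyhead site (AACCGGTT, 0.116%) and the LXR direct repeat (AGGTCA 2 times, 4 bases apart, 0.0152%). Of these, only the CCAAT box was found, once, in the *Alox12e* window at -214. A match is a run of letters and not a measured binding site, and its absence from this window says nothing about the factor.

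Both genes of the epidermal barrier pair overlapped between the groups. *Alox12b*, which encodes the 12R-lipoxygenase, had the highest level of the family, with 80.4 and 73.3 FPKM in Cont-IMQ skin and 76.5 and 97.9 FPKM in 7KC-IMQ skin. The ratio of its means was 1.13. Its mean over the 4 libraries stood at percentile 95.4 of all gene symbols. *Aloxe3*, which encodes the epidermal enzyme that isomerizes the hydroperoxides made by the 12R-lipoxygenase, had 27.1 and 23.3 FPKM in Cont-IMQ skin and 22.5 and 25.6 FPKM in 7KC-IMQ skin. Its highest library stood at 1.20 times its lowest, the narrowest range of the 8 genes. The level of *Aloxe3* was between 0.261 and 0.336 of that of *Alox12b* in each library. The corresponding ratio of *Alox8* to *Alox12b* was 0.131 and 0.0960 in Cont-IMQ skin and 0.377 and 0.737 in 7KC-IMQ skin, a ratio that a single scaling factor per library leaves as it is.

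**Figure D1:**
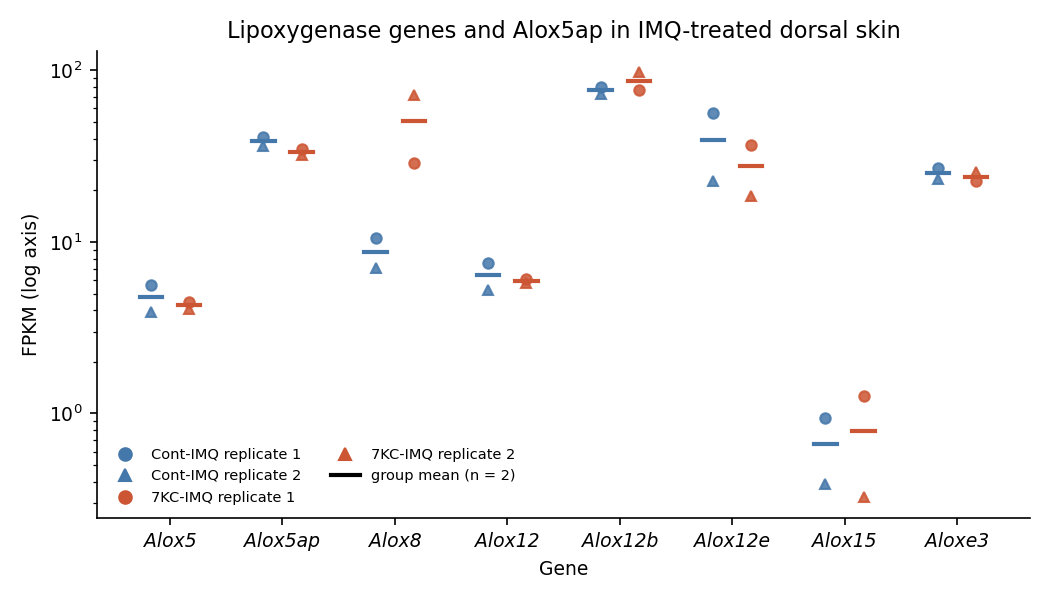
FPKM (log axis) of the 8 genes in each of the 4 libraries, with circles for replicate 1, triangles for replicate 2 and bars for the group means (n = 2). *Alox8* is separated between the groups by a factor of 2.74 between the nearest libraries, while *Alox12e* and *Alox15* differ more within each group than between the group means.

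The genes of arachidonate 12- and 15-lipoxygenation differed mainly within the groups. *Alox12e*, which encodes the epidermal 12S-lipoxygenase, had 56.3 and 22.6 FPKM in Cont-IMQ skin and 36.8 and 18.6 FPKM in 7KC-IMQ skin. The groups overlapped, and the libraries differed by a factor of 2.49 within the Cont-IMQ group and 1.98 within the 7KC-IMQ group. Its difference on the log2(FPKM + 1) scale was -0.43, with a standard error of 0.53. It was -1.07 without Cont-IMQ replicate 2 and 0.20 without Cont-IMQ replicate 1, and also above 0 without 7KC-IMQ replicate 2 (0.038), so its direction depended on the library left out. *Alox15*, the leukocyte-type 12/15-lipoxygenase of macrophages and eosinophils, was the lowest member, with 0.940 and 0.386 FPKM in Cont-IMQ skin and 1.26 and 0.328 FPKM in 7KC-IMQ skin. These values rest on an estimated 32, 13, 45 and 11 reads, and the groups overlapped. The exact Poisson 95% intervals were 0.921 to 1.69 FPKM and 0.164 to 0.586 FPKM in 7KC-IMQ skin, so the gap between these libraries was larger than counting error. In both genes, the library labelled replicate 1 was the higher of its group, and the 2 libraries labelled replicate 1 stood above both libraries labelled replicate 2. This order was not particular to them, as *Alox12* and *Alox5*, given below, had it too. *Alox12*, the platelet-type 12S-lipoxygenase, had 7.56 and 5.24 FPKM in Cont-IMQ skin and 6.09 and 5.76 FPKM in 7KC-IMQ skin. The 7KC-IMQ libraries of *Alox12* lay between the Cont-IMQ libraries.

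Of the genes of leukotriene synthesis, *Alox5*, which encodes the 5-lipoxygenase of leukocytes, had 5.61 and 3.92 FPKM in Cont-IMQ skin and 4.46 and 4.09 FPKM in 7KC-IMQ skin. As with *Alox12*, the 7KC-IMQ libraries lay within the range of the Cont-IMQ libraries. *Alox5ap*, which encodes the membrane protein that presents arachidonate to 5-lipoxygenase, had 41.1 and 36.0 FPKM in Cont-IMQ skin and 34.7 and 32.3 FPKM in 7KC-IMQ skin. Both 7KC-IMQ libraries were lower than both Cont-IMQ libraries, by -0.20 on the log2(FPKM + 1) scale (standard error 0.096), and by -0.29 to -0.10 with each library left out. The level of *Alox5ap* was between 7.31 and 9.19 times that of *Alox5* in each library.

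Of the 8 members, 2 did not overlap between the groups, *Alox8* (higher) and *Alox5ap* (lower). Over all genes tested, 46.8% did not overlap, 23.9% as higher and 22.9% as lower in the 7KC-IMQ group. *Alox8* was also at least 2-fold higher without overlap on the log2(FPKM + 1) scale, as were 0.484% of all genes. The median difference of the 8 members was -0.071, and that of all 15896 genes tested was -0.0056, with 3 members above 0 and 5 below. Without *Alox8*, the differences ranged from -0.43 to 0.17. When each library was left out in turn, the differences of *Alox8* and *Alox5ap* kept their sign, which groups without overlap fix, and those of the other 6 members took both signs. In limma's fit across all genes, 1 of the 15896 (0.00629%) passed an adjusted p-value of 0.05. It was not a member but the short RNA gene *Mir24-2*, named here after its values were seen, which was listed at 0 in both 7KC-IMQ libraries.

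**Figure D2:**
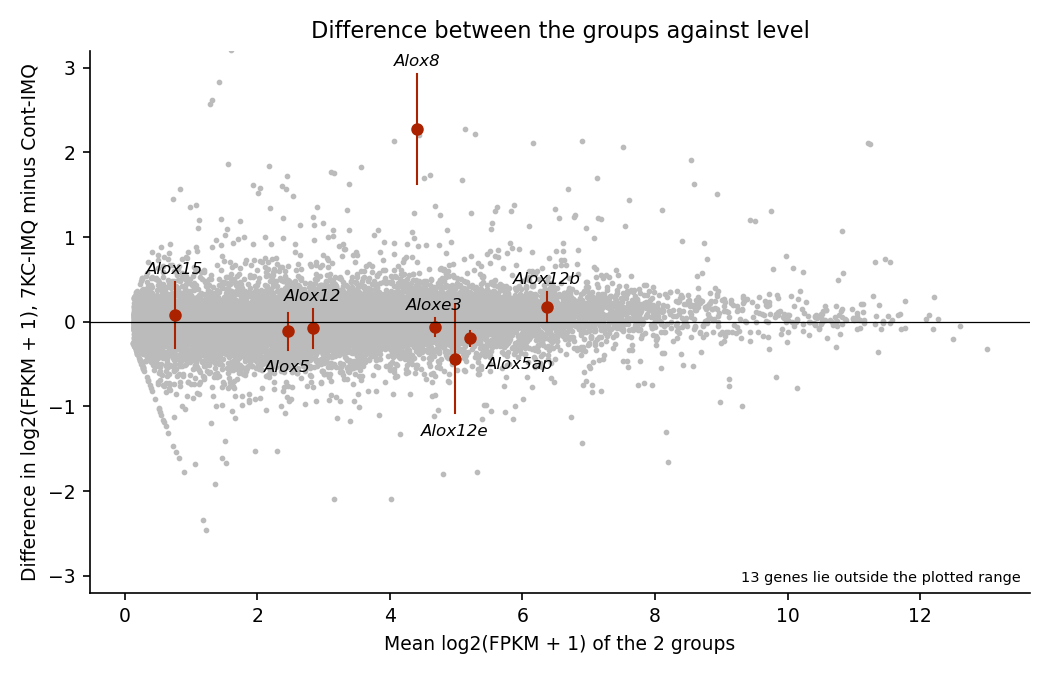
Difference in log2(FPKM + 1) between the groups (vertical axis) against the mean level of the gene on the same scale (horizontal axis) for the genes tested (gray) and the 8 members (red), with lines from the lowest to the highest difference when each library was left out. *Alox8* stands at 2.28 and the other members between -0.43 and 0.17, and 13 genes lie outside the plotted range.

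In the order of mean levels, *Alox12b* came first in both groups. In the Cont-IMQ group, *Alox12e*, *Alox5ap*, *Aloxe3*, *Alox8*, *Alox12*, *Alox5* and *Alox15* followed. The libraries of *Alox12e* and *Alox5ap* overlapped there, as did those of *Alox8* and *Alox12* and those of *Alox12* and *Alox5*. In the 7KC-IMQ group, *Alox8* came at rank 2 instead of rank 5, with a range that overlapped that of *Alox5ap*. The ranges of *Alox5ap* and *Alox12e* and of *Alox12e* and *Aloxe3* overlapped in that group too, and *Alox12*, *Alox5* and *Alox15* were separate from their neighbors in the order. As a share of the summed FPKM of the 7 lipoxygenase genes, *Alox8* made up 5.58% and 5.18% in Cont-IMQ skin and 16.3% and 32.1% in 7KC-IMQ skin. The difference of the group means was 18.9 percentage points (SD within groups 7.90), and it was 10.96 without 7KC-IMQ replicate 2 and 26.8 without 7KC-IMQ replicate 1. *Alox12b* held 42.7% and 54.0% in Cont-IMQ skin and 43.3% and 43.6% in 7KC-IMQ skin. The summed level without *Alox8* was 178 and 129 FPKM in Cont-IMQ skin and 148 and 152 FPKM in 7KC-IMQ skin, so these overlapped.

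**Figure D3:**
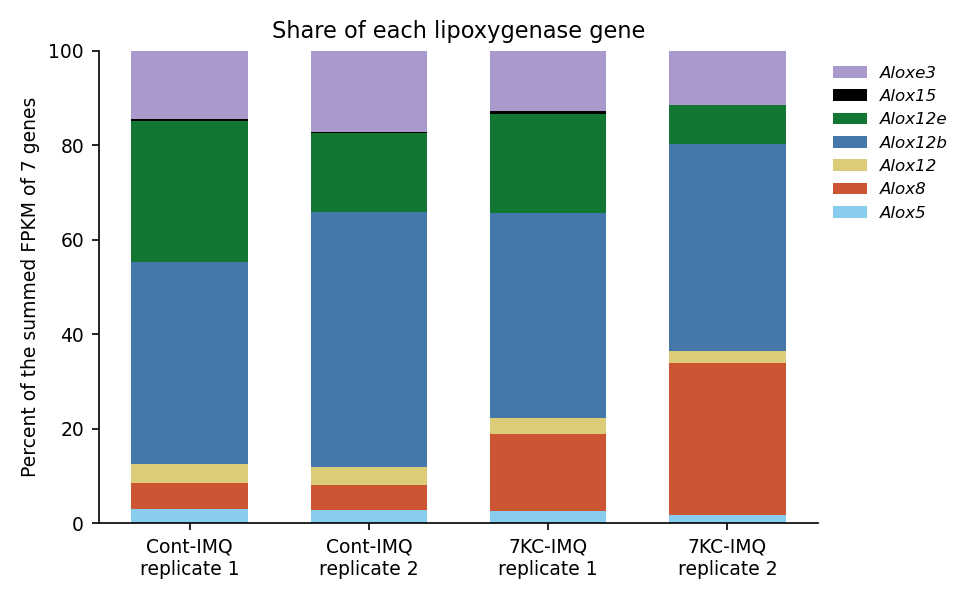
Share of each of the 7 lipoxygenase genes in their summed FPKM (percent, vertical axis) in each of the 4 libraries. *Alox8* takes 5.18% to 5.58% in Cont-IMQ skin and 16.3% to 32.1% in 7KC-IMQ skin, and *Alox12b* is the largest share throughout.

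In the annotation of GRCm38 (GENCODE M21), 6 of the 7 lipoxygenase genes lie on chromosome 11 in 2 runs. *Aloxe3* (69125896 to 69149115, plus strand), *Alox12b* (69156989 to 69169792, plus strand) and *Alox8* (69183932 to 69197843, minus strand) adjoin over 71.95 kb, with gaps of 7.87 kb and 14.1 kb. *Alox12* (70241457 to 70255353), *Alox12e* (70315610 to 70322628) and *Alox15* (70344152 to 70352031), all on the minus strand, span 110.6 kb. A distance of 1044 kb separates the runs. *Alox5* lies on chromosome 6 (116410077 to 116461178, minus strand) and *Alox5ap* on chromosome 5 (149264767 to 149288153, plus strand). No gene of the files with a mean of at least 1 FPKM lies inside either run. Around *Alox8*, the nearest such genes were *Per1*, a circadian clock gene 15.9 kb to the left of *Aloxe3*, and *Cntrob*, a centriole gene 102 kb to the right of *Alox8*. *Per1* had 24.4 and 29.6 FPKM in Cont-IMQ skin and 20.4 and 25.7 FPKM in 7KC-IMQ skin. *Cntrob* had 2.89 and 3.88 FPKM in Cont-IMQ skin and 3.69 and 3.58 FPKM in 7KC-IMQ skin. Both overlapped between the groups (adjusted p = 0.591 for *Per1* and 0.828 for *Cntrob* in limma over all genes). Beside the other run, *Rnasek* (between 152 and 163 FPKM, adjusted p = 0.948 in limma) overlapped. *Pelp1* had 10.5 and 12.02 FPKM in Cont-IMQ skin and 14.3 and 12.4 FPKM in 7KC-IMQ skin (adjusted p = 0.498 in limma). It was higher without overlap, as were 23.9% of all genes. The coding sequences were most alike within a run. *Alox12e* and *Alox15* were identical at 69.3% of aligned bases, *Alox12* and *Alox15* at 67.7%, *Alox8* and *Aloxe3* at 64.5%, and *Alox12b* and *Alox12e*, the least alike pair, at 58.3%. No 75-base window of the longest coding transcript of any member occurs in a transcript of another gene, so reads of the length used were not shared between members in the annotation.

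**Figure D4:**
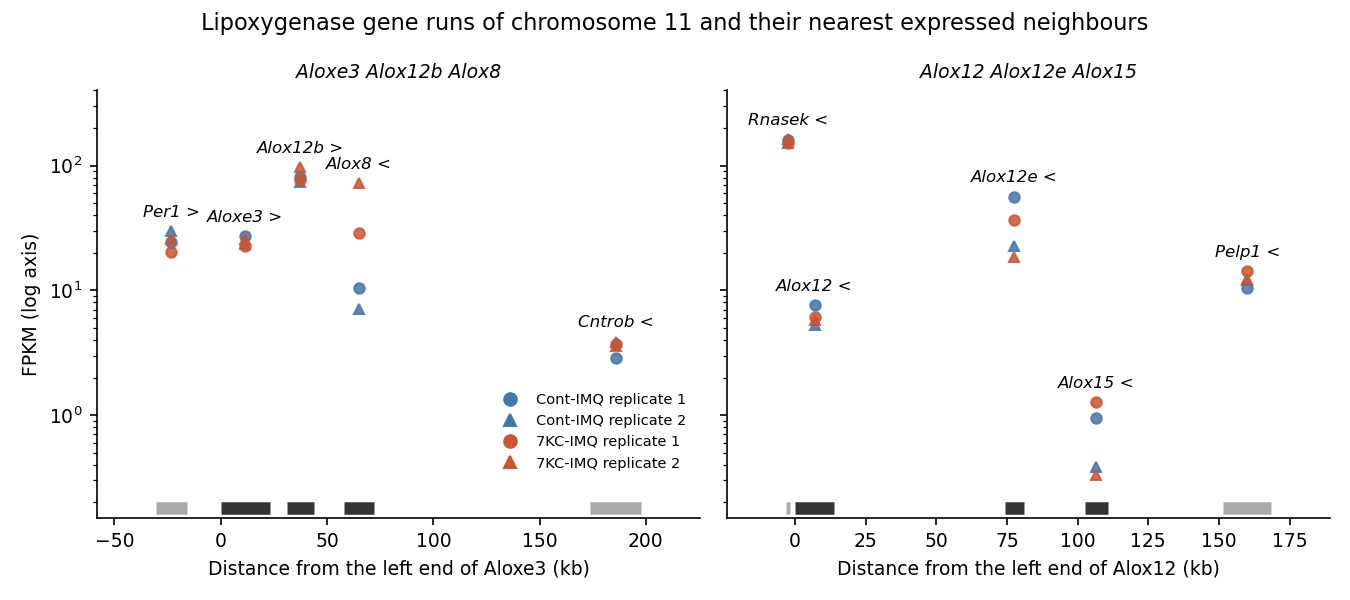
FPKM (log axis) of the genes of the 2 chromosome 11 runs and of the nearest expressed gene on either side in each library, against distance in kb from the left end of the run, with bars for the gene bodies (black for members, gray for neighbors) and > or < for the strand. Of the 3 genes of its run, only *Alox8* does not overlap between the groups, while *Aloxe3* also does not (lower) when all libraries are scaled to the same sum.

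The genes whose values over the 4 libraries were most like those of *Alox8* were found among 13109 other genes with a mean of at least 1 FPKM, by the distance between log2(FPKM + 1) values centred on each gene's mean. The nearest were *Sprr2b* (distance 0.32), *S100a9* (0.34), *S100a8* (0.36), *Uox* (0.41) and *Sprr2i* (0.45). *Sprr2b* and *Sprr2i* encode small proline-rich proteins of the cornified envelope, *S100a8* and *S100a9* the subunits of calprotectin, and *Uox* urate oxidase. *Sprr2b*, for example, had 24.1 and 11.9 FPKM in Cont-IMQ skin and 53.4 and 128 FPKM in 7KC-IMQ skin. Like *Alox8*, these genes were highest in 7KC-IMQ replicate 2, which follows from choosing them by likeness and is no further likeness. The likeness is a description over 4 points that share the libraries.

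Several cell types of the skin express lipoxygenases, and in bulk skin fewer cells of a type and less RNA per cell cannot be told apart. The counts without overlap in each list stand beside 23.9% higher and 22.9% lower over all genes tested. The neutrophil list held genes of both directions. Its summed level (10 of 11 genes in the files) was 2697 and 2275 FPKM in Cont-IMQ skin and 7340 and 13910 FPKM in 7KC-IMQ skin, with 7 genes higher and 3 lower without overlap, and *Stfa2l1* was listed at 0 in both Cont-IMQ libraries. Nearly all of that sum was *S100a8* and *S100a9*, which keratinocytes also express. Both were named above as genes chosen for likeness to *Alox8*, so the sum is not a separate likeness. The other 8 genes summed to 137 and 175 FPKM in Cont-IMQ skin and 146 and 125 FPKM in 7KC-IMQ skin. That sum overlapped, but it was mostly *Il1r2* (102 and 127 FPKM against 100 and 76.6 FPKM) and hid opposite directions. *Cxcr2*, *Csf3r*, *Mmp8*, *Retnlg* and *Stfa2l1* were each higher without overlap, and *Il1r2*, *Fpr1* and *Mmp9* lower. The differentiated keratinocyte list (8 of 9 genes, none at 0, 0 higher and 2 lower without overlap) summed to 26126 and 17609 FPKM against 19314 and 21104 FPKM, and the basal list (7 of 7, none at 0, 2 higher and 2 lower without overlap) to 8095 and 7254 FPKM against 8082 and 8884 FPKM. The sums of both lists overlapped between the groups. The part of these cell types in the *Alox8* values was not tested. Beside *Alox5* and *Alox5ap*, the macrophage list (9 of 9 genes, none at 0, 3 lower without overlap) summed to 953 and 1166 FPKM in Cont-IMQ skin and 908 and 963 FPKM in 7KC-IMQ skin. The mast cell list (8 of 8, none at 0, 3 lower without overlap) was at 107 and 106 FPKM against 87.9 and 92.6 FPKM. Their part in the lower *Alox5ap* values was not tested. The platelet list (8 of 8 genes, 1 higher and 1 lower without overlap), whose *Gp9* and *Gp6* were at 0 in all libraries, summed to 41.3 and 35.3 FPKM against 28.1 and 30.5 FPKM, mostly from *Pf4*. In the eosinophil list (6 of 6 genes, 1 higher and 1 lower without overlap), the defining markers *Prg2* and *Epx* were at 0 in all libraries, and the sum was between 1.82 and 4.55 FPKM. The part of platelets in the *Alox12* values and of eosinophils in the *Alox15* values was not tested. The sebaceous gland list (10 of 10, none at 0, 6 higher and 2 lower without overlap) summed to 569 and 460 FPKM against 667 and 653 FPKM. The skeletal muscle list (7 of 7, none at 0, 2 higher and 2 lower without overlap) was between 5756 and 7090 FPKM in all libraries.

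The other genes of the pathways were taken from 6 hand-made lists. These were chosen with earlier results of these data known, so a share above that of all genes is a description only. All 69 genes were in the files and 65 were tested. After adjustment over all genes, 0 of the 65 passed in limma, where the smallest adjusted p-value was 0.352. At an unadjusted p-value under 0.05, 11 were higher in 7KC-IMQ skin and 6 lower (26.2% of the 65, against 13.0% of all genes, of which 7.50% were higher and 5.47% lower). Without 7KC-IMQ replicate 2, these counts were 5 of the 65 and 615 of all genes, in place of 17 and 2061, and without 7KC-IMQ replicate 1 they were 17 and 1137. When all libraries were scaled to the same sum of FPKM, 18 of the 65 had an unadjusted p-value under 0.05 in limma. Of these, 9 were higher in 7KC-IMQ skin, against 11 of 18 with median ratio scaling and 11 of 19 with quantile normalization. The larger number of higher genes therefore depended on the scaling. No overlap between the groups was found in 56.9% of the 65, against 46.8% of all genes. Phospholipases A2 release the fatty acid that lipoxygenases use, and of the 16 tested, 4 were higher and 5 lower without overlap. *Pla2g4b*, *Pla2g4d* and *Pla2g4e* encode cytosolic phospholipases of the group IV family. *Pla2g4b*, whose value is uncertain because it is known to share readthrough transcripts with its neighbor *Jmjd7*, had 15.1 and 12.3 FPKM in Cont-IMQ skin and 24.2 and 32.3 FPKM in 7KC-IMQ skin, a difference of 0.99 on the log2(FPKM + 1) scale (standard error 0.18, adjusted p = 0.352 in limma). *Pla2g4e* had 33.7 and 31.0 FPKM against 47.0 and 69.4 FPKM, and *Pla2g4d*, which is low, had 1.07 and 0.616 FPKM against 1.75 and 3.16 FPKM (both adjusted p = 0.356 in limma). As in *Alox8*, 7KC-IMQ replicate 2 was the highest library of each of these genes. *Pla2g2f*, the secreted phospholipase of the upper epidermis and the most abundant of the list, went the other way, with 314 and 312 FPKM in Cont-IMQ skin and 254 and 231 FPKM in 7KC-IMQ skin (difference -0.37, standard error 0.085, adjusted p = 0.356 in limma). *Pla2g4a*, which encodes the main arachidonate-releasing enzyme of leukocytes, had 20.7 and 17.6 FPKM against 15.4 and 15.4 FPKM. *Pla2g3*, another secreted enzyme, had 3.51 and 2.66 FPKM against 2.01 and 1.39 FPKM (adjusted p = 0.357 in limma).

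Downstream of *Alox5*, 11 genes of leukotriene synthesis and breakdown were tested, of which 1 was higher and 6 lower without overlap. Over all genes, 23.9% were higher and 22.9% lower without overlap. *Ltc4s*, which encodes leukotriene C4 synthase, had 12.1 and 10.3 FPKM in Cont-IMQ skin and 8.57 and 5.44 FPKM in 7KC-IMQ skin (difference -0.63, standard error 0.22, adjusted p = 0.368 in limma). *Mgst2*, a microsomal glutathione transferase that can make the same leukotriene, had 24.2 and 17.4 FPKM against 11.5 and 14.3 FPKM (adjusted p = 0.360 in limma). *Dpep2*, a dipeptidase of cysteinyl leukotrienes, had 6.53 and 3.997 FPKM against 3.48 and 3.35 FPKM. *Dpep1*, another dipeptidase, had 68.6 and 75.2 FPKM against 63.7 and 54.3 FPKM, and *Mgst3*, the most abundant gene of the list, had 126 and 152 FPKM against 117 and 116 FPKM. *Lta4h*, which encodes the enzyme that makes leukotriene B4, was between 36.5 and 39.2 FPKM in all libraries and overlapped. The median difference of the list was -0.24, against -0.0056 over all genes.

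Of 12 receptors of lipoxygenase products, 6 were higher and 2 lower without overlap, with a median difference of 0.11. The shares over all genes were 23.9% higher and 22.9% lower. *Ltb4r1*, the high-affinity leukotriene B4 receptor of leukocytes, had 16.0 and 14.5 FPKM in Cont-IMQ skin and 19.7 and 21.4 FPKM in 7KC-IMQ skin (difference 0.41, standard error 0.095, adjusted p = 0.356 in limma). *Ltb4r2*, the low-affinity receptor of keratinocytes, had 11.1 and 11.6 FPKM against 14.99 and 17.1 FPKM (adjusted p = 0.354 in limma). *Gpr18*, which encodes a proposed receptor of resolvin D2, had 1.18 and 1.25 FPKM against 2.15 and 2.63 FPKM (adjusted p = 0.352 in limma). Of the nuclear receptors that bind oxidized fatty acids, *Ppard*, the most abundant gene of the list, had 33.0 and 35.1 FPKM against 40.5 and 49.5 FPKM (adjusted p = 0.363 in limma). *Ppara*, which the product of the 8S-lipoxygenase can activate, had 2.11 and 1.62 FPKM against 1.32 and 1.38 FPKM (adjusted p = 0.447 in limma). It was lower in 7KC-IMQ skin without overlap. Within each group the library with more *Alox8* also had more *Ppara*, though the 7KC-IMQ libraries were nearly level in *Ppara*. An order in 2 pairs of libraries cannot show a relation between these genes, which was not tested.

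**Figure D5:**
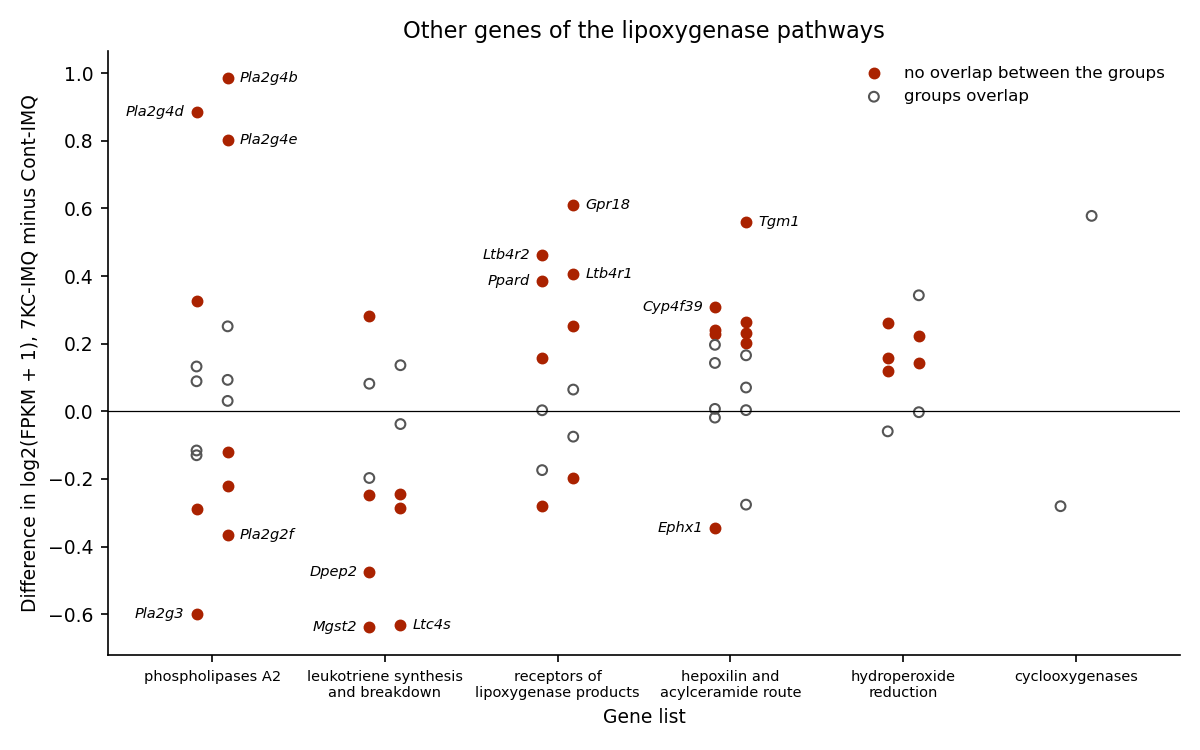
Difference in log2(FPKM + 1) between the groups for the 65 tested genes of the 6 lists, filled where the groups do not overlap and open where they do. *Pla2g4b* is the highest point at 0.99, and *Mgst2*, *Ltc4s* and *Pla2g3* are the lowest points, between -0.64 and -0.60.

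Around *Alox12b* and *Aloxe3*, 16 genes of the hepoxilin and acylceramide route were tested, of which 7 were higher and 1 lower without overlap. The shares over all genes were 23.9% higher and 22.9% lower. The median difference of the list was 0.18. *Tgm1*, which encodes the transglutaminase that cross-links the cornified envelope, had 94.0 and 91.5 FPKM in Cont-IMQ skin and 119 and 159 FPKM in 7KC-IMQ skin (difference 0.56, standard error 0.15, adjusted p = 0.356 in limma). *Cyp4f39*, which encodes the hydroxylase of very long acyl chains, had 35.7 and 35.8 FPKM against 42.9 and 46.1 FPKM (adjusted p = 0.356 in limma). *Elovl4*, the elongase of those chains, was the most abundant gene of the list, with 521 and 457 FPKM against 561 and 586 FPKM (adjusted p = 0.437 in limma). *Abhd5*, which encodes an activator of acylceramide synthesis, had 53.9 and 51.2 FPKM against 59.2 and 67.6 FPKM. *Sdr9c7*, the dehydrogenase that acts on the product of *Aloxe3*, had 68.5 and 54.1 FPKM against 57.5 and 71.2 FPKM and overlapped. *Ephx1*, a microsomal epoxide hydrolase, was the gene that was lower, with 31.3 and 36.9 FPKM against 28.7 and 24.5 FPKM (adjusted p = 0.374 in limma).

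Of 8 genes that reduce, or help to reduce, lipid hydroperoxides or other peroxides, 5 were higher and 0 lower without overlap, beside 23.9% and 22.9% of all genes. None of the 8 had an unadjusted p-value under 0.05 in limma. *Gpx4*, the glutathione peroxidase of membrane lipid hydroperoxides, was between 211 and 222 FPKM in all libraries, and *Gpx1* had 520 and 512 FPKM in Cont-IMQ skin and 558 and 687 FPKM in 7KC-IMQ skin (adjusted p = 0.471 in limma). *Txnrd1*, *Gpx8* and *Prdx1* were also higher without overlap, by 0.22, 0.16 and 0.14 on the log2(FPKM + 1) scale. Of the cyclooxygenase genes, which draw on the same arachidonate, both overlapped between the groups. *Ptgs1* had 61.7 and 48.2 FPKM against 49.7 and 40.3 FPKM, and *Ptgs2*, the inducible form, had 7.17 and 15.7 FPKM against 12.05 and 22.4 FPKM (adjusted p = 0.531 and 0.621 in limma).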

How the data were processed

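RNA was measured in 4 libraries of IMQ-treated dorsal skin, 2 per group, grouped by the sample titles. The authors mapped single-end reads of 75 bases to mm10 and deposited FPKM values, 1 file per library with 1 value per gene symbol. The submitters' processing notes name TopHat2 2.1.1, Bowtie2 2.2.8, SAMtools 0.1.18 and Cuffdiff 2.2.1, whereas the paper's text names Cufflinks and other versions of the mapping tools. Libraries were made with a stranded kit, and how strand and reads mapped to several places were treated is not given in the sources used here.

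FPKM were used without further scaling. In genes with a mean of at least 0.1 FPKM (15896 genes), log2(FPKM + 1) was compared by limma 3.58.1 in R 4.3.3 with a variance trend and Benjamini-Hochberg adjustment at 0.05. The step was also run on simulated data, where the changes were larger than those of the members and the spread was shuffled across genes. That run is therefore no check of the small differences given here. A two-sided exact permutation test of 2 against 2 libraries cannot go below p = 0.333 and was not used. Reads were estimated by scanning, for genes with a single GENCODE M21 transcript (length less 200 bases), for the depth that brings low values nearest to whole reads, and the longest coding transcript served for the members. The members and lists were chosen with earlier results of these data known.

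All members were named. From each pathway list, up to 4 genes with a mean of at least 1 FPKM and no overlap between the groups were taken by size of difference, plus the most abundant gene. *Pla2g4a*, *Lta4h*, *Ppara*, *Sdr9c7*, *Gpx4* and *Ptgs2* and, within the marker lists, single markers were added after their values were seen. Alternatives were a pseudocount of 0.1, a minimum of 1 FPKM or none, median ratio, equal-sum and quantile scaling, no variance trend, a replicate block, and leaving out each library.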

Additional observations from a re-analysis of the deposited data

How the results depend on the processing

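Under another pseudocount or scaling, 32 of 32 differences of the 8 members moved by less than 1 SD within groups. With 2 libraries per group, the replicate block cannot change a difference, and leaving out a library cannot move it by more than that SD, so neither was counted. With each library left out, the number of members without overlap was between 4 and 6 in place of 2 (5 without Cont-IMQ replicate 1, 6 without Cont-IMQ replicate 2, 5 without 7KC-IMQ replicate 1 and 4 without 7KC-IMQ replicate 2). A group of 1 library overlaps less often by construction, and the share of all genes without overlap was then 77.6%, 77.4%, 71.0% and 66.8%, in the same order. With the same sum of FPKM in each library the number was 3, as *Aloxe3* was then lower without overlap, beside 47.1% of all genes. The share difference of *Alox8* ranged from 10.96 to 26.8 percentage points.

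Over all genes, 1 passed the adjusted threshold, 2 passed with a pseudocount of 0.1, and between 1 and 9 with a library left out (9 without Cont-IMQ replicate 1 and 5 without Cont-IMQ replicate 2), where the lone library is assumed to vary like the others. The cause was not tested. With the replicate number as a block, 1 gene and 0 pathway genes passed. The same numbers in both groups did not pair the libraries by any label, and across 13110 genes the within-group differences correlated at r = 0.0776. The number of pathway genes past the threshold was 0 under every alternative run. *Alox15* rests on 45 reads or fewer per library, so differences below its counting intervals were not detectable at this depth.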
